A study of Mus musculus with 9 samples.

Results

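The Krüppel-like factors (KLFs) are zinc finger proteins that bind GC-rich and CACCC sequences in the control regions of genes. Some members of the family are known to drive the formation of fat cells, others to hold it back, and several act upstream of Pparg, the master regulator of adipocytes. The genes described here are Klf2, Klf3, Klf4, Klf5, Klf6, Klf7, Klf10, Klf11, Klf13 and Klf15. They were chosen by name, and all 10 were found among the 54532 genes measured. None was at 0 in all 6 libraries of a comparison, so all 10 were tested in each, Klf15 with few counts in some groups.

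The cells were 3T3-L1, a mouse preadipocyte line that fills with lipid in a hormonal medium and that the labels list as fibroblast. The 3 states were compared with n = 3 libraries each, 9 in all, of poly A enriched RNA. Undifferentiated cells stayed in high glucose DMEM with 10% BCS for 3 days at confluence. Differentiated cells then received a medium with FBS, arginine, lysine, 1 μM dexamethasone, 0.5 mM IBMX, which slows cyclic nucleotide breakdown, 1 μM rosiglitazone and 10 μg/mL insulin. Lysfree cells received the same medium with no lysine added, so Lysfree and Differentiated shared the 4 agents and differed in lysine, while both differed from Undifferentiated in agents, serum and base medium together. RNA was collected after differentiation. Whether replicates were separate cultures is not given in the sources used here, so p-values measure the spread between these samples only, which may be technical.

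Total counts ranged from 15880144 to 21806693 per library. Summed over 8 adipocyte markers, the level was 310 to 393 FPKM in Undifferentiated, 7303 to 7650 in Differentiated and 306 to 424 in Lysfree, where FPKM is fragments per kilobase of gene scaled to the library total. The near-equal sums of Undifferentiated and Lysfree held opposite differences. In Lysfree vs Undifferentiated 2 of the 8 were higher and 4 lower at an edgeR adjusted p under 0.05, beside 18.0% and 17.1% of all genes. Cd36 was 4.53-fold higher and Adipoq 13.4-fold lower. Summed over 9 fibroblast and preadipocyte markers, the level was 5469 to 5866, 1367 to 1377 and 2008 to 2094 FPKM in the same order of groups. The part of these marker differences in the KLF results below was not tested. The summed endothelial markers, with Tie1 at 0 in every library, did not exceed 0.188 FPKM. The macrophage and blood markers summed to 4.66 to 6.47 FPKM, nearly all of it Cd14, with Adgre1 and Hbb-bs at 0. The epithelial markers, with Epcam at 0, did not exceed 1.72 FPKM. In such bulk samples, fewer cells of a type and less RNA per cell cannot be told apart.

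The library Lysfree 1 stood apart. Its counts differed from those of Lysfree 2 and Lysfree 3 by a chi-square of 39.6 and 40.7 per degree of freedom, against 2.67 between Lysfree 2 and Lysfree 3 and 2.85 to 11.3 within the other groups. Lysfree results whose call rests on that library are also given without it, as are some whose size rests on it.

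Among the 10 members, each group had its own order of levels. Klf6 led in Undifferentiated and Differentiated, with 26.1 ± 1.19 and 29.2 ± 0.294 FPKM (mean ± SD, n = 3), and Klf4 led in Lysfree with 69.3 ± 17.2 FPKM. Klf9, a KLF outside the 10, averaged 30.3 FPKM in Differentiated, and its libraries there overlapped those of Klf6. In Undifferentiated, Klf4, Klf10 and Klf13 followed Klf6 in that order with no overlap between neighbours. Klf3, Klf2 and Klf11 came next, at 7.79, 6.73 and 6.33 FPKM on average, and the libraries of neighbours in that order overlapped. Klf7, Klf5 and Klf15 were lowest, at 1.43, 0.617 and 0.207 FPKM. In Differentiated, Klf10 and Klf13 followed Klf6, and Klf4 stood level with Klf2, whose libraries it overlapped. The last 5 members there, Klf3, Klf11, Klf15, Klf7 and Klf5, lay between 3.17 and 2.38 FPKM on average, and each overlapped its neighbour in the order. In Lysfree, Klf4 was followed by Klf10 and Klf6, which overlapped, then by Klf13, Klf3, Klf11 and Klf7 with no overlap, then by Klf5 and Klf2, which overlapped, and last by Klf15.

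The summed level of the 10 genes was 104 ± 4.93 FPKM in Undifferentiated, 83.7 ± 1.44 in Differentiated and 171 ± 12.9 in Lysfree (mean ± SD, n = 3). The 3 ranges did not overlap. Klf4 made up 22.9% ± 1.18 of this sum in Undifferentiated, 8.16% ± 0.0638 in Differentiated and 40.3% ± 7.35 in Lysfree. In Lysfree 1 the share of Klf4 was 31.8%, the lowest of the 3 Lysfree libraries. The share of Klf6 was 25.1% ± 0.109, 34.9% ± 0.361 and 18.8% ± 3.23 in the same order of groups.

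**Figure D1:**
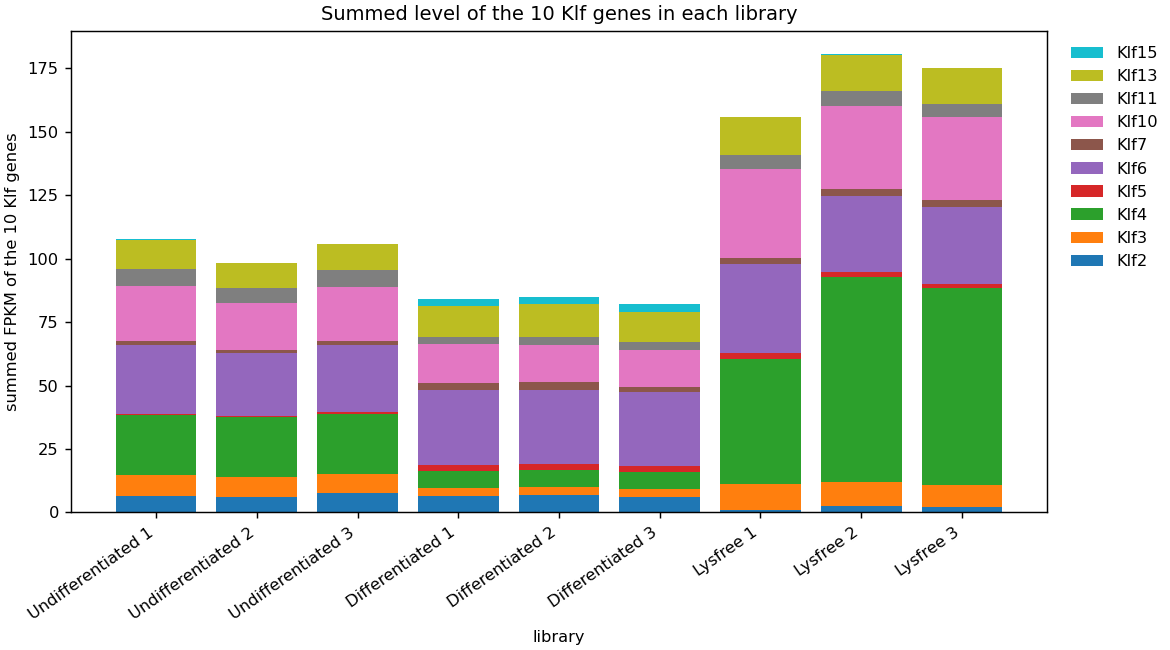
Summed FPKM of the 10 Klf genes in each of the 9 libraries, with 1 colour per gene. The Klf4 segment is widest in the Lysfree libraries, at 31.8% to 44.8% of the sum, and narrow in the Differentiated libraries, at 8.10% to 8.23%.

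To see how the family differed between cells given the differentiation medium and cells left undifferentiated, Differentiated was compared with Undifferentiated. Of the 10 members, Klf5, Klf6, Klf7, Klf13 and Klf15 rose and Klf3, Klf4, Klf10 and Klf11 fell at an adjusted p under 0.05 (edgeR quasi-likelihood test, Benjamini-Hochberg adjustment over all genes). Of all 24402 genes tested, which include genes with very few counts, 23.0% rose and 23.2% fell by this rule. Among the 13869 genes kept by the stricter count filter filterByExpr, 5190 rose and 5274 fell. The shares of all genes given below also include genes with very few counts, so they are a low base for well-counted genes. With the added demand of a 2-fold change, 2 members rose, Klf5 and Klf15, and 3 fell, Klf3, Klf4 and Klf11, against 10.4% and 11.4% of all genes. The median log2 fold change was 0.02 over the members and 0.02 over all genes. In FPKM, 9 of the 10 members had no overlap between the groups, Klf2 being the exception, against 50.9% of all genes. The FPKM values carry a constant per library, 0.988 to 0.994 in Undifferentiated and 1.03 to 1.04 in Differentiated, so a narrow gap may rest on it. The gap of Klf13 was narrow, with 11.6 FPKM in Undifferentiated 1 and 11.7 in Differentiated 3. Their FPKM constants were 0.988 and 1.03, so the order of these 2 libraries depends on the scaling.

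In Lysfree vs Undifferentiated, Klf3, Klf4, Klf5, Klf6, Klf7, Klf10 and Klf13 rose and Klf2 fell, while Klf11 and Klf15 did not pass. Of all 23994 genes tested, 18.0% rose and 17.1% fell, and of the 13648 kept by filterByExpr, 3926 rose and 4025 fell. At 2-fold, Klf4 and Klf5 rose and Klf2 fell, against 5.52% and 8.76% of all genes. The median log2 fold change was 0.43 over the members and -0.02 over all genes. Here 9 of the 10 members did not overlap between the groups in FPKM, all but Klf11, against 43.5% of all genes. For Klf15 the gap was narrow, with 0.150 FPKM in Lysfree 2 and 0.157 in Undifferentiated 3.

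In Lysfree vs Differentiated, which compares the medium without and with lysine, Klf3, Klf4, Klf10, Klf11 and Klf13 rose and Klf2 and Klf15 fell, while Klf5, Klf6 and Klf7 did not pass. Of all 24130 genes tested, 19.7% rose and 18.8% fell, and of the 13617 kept by filterByExpr, 4355 rose and 4297 fell. At 2-fold, Klf3, Klf4 and Klf10 rose and Klf2 and Klf15 fell, against 8.14% and 10.5% of all genes. The median log2 fold change was 0.26 over the members and -0.06 over all genes. Again 9 of the 10 did not overlap in FPKM, all but Klf7, against 46.6% of all genes, with the same limit of the FPKM constant. The 3 comparisons share libraries in pairs, so their counts are not independent of each other.

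**Figure D2:**
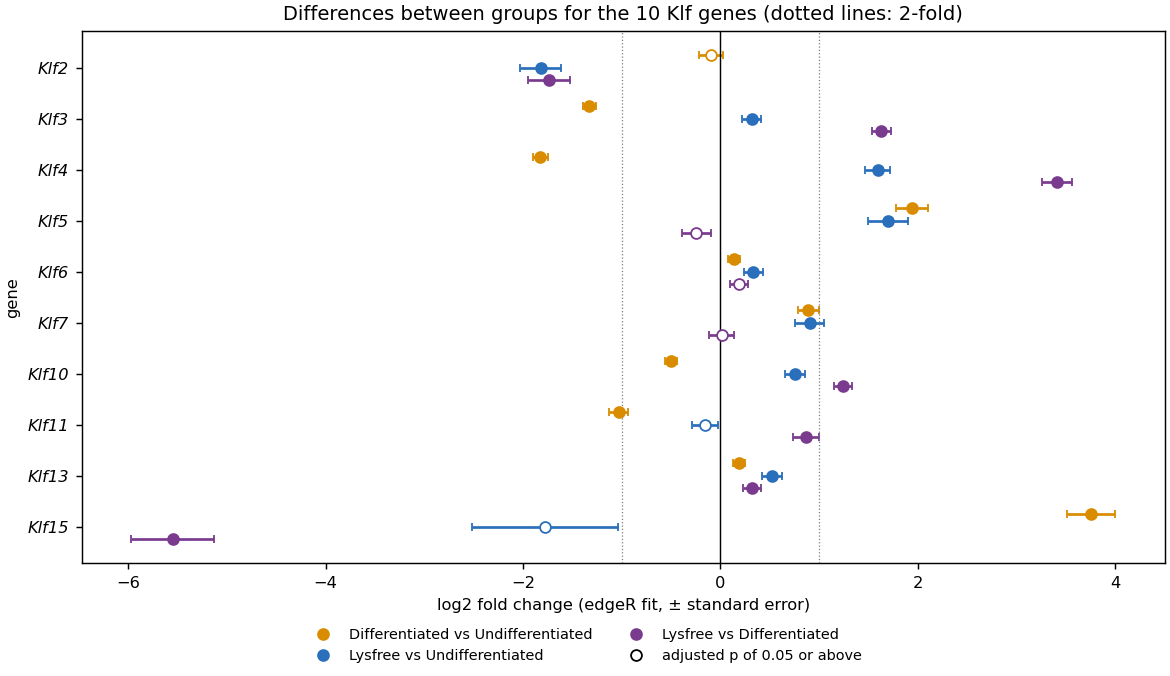
Fitted log2 fold change of each Klf gene in the 3 comparisons, with its standard error. Filled points have an edgeR adjusted p under 0.05 and dotted lines mark 2-fold. Klf15 spans the widest range, from 3.76 to -5.55, and the 3 points of Klf13 lie between 0.19 and 0.52.

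The members with a reported role in promoting adipocyte differentiation were Klf4, Klf5, Klf6, Klf13 and Klf15. In Differentiated vs Undifferentiated 4 of the 5 rose and 1 fell, beside 23.0% and 23.2% of all genes. In Lysfree vs Undifferentiated 4 rose and none fell, beside 18.0% and 17.1% of all genes. In Lysfree vs Differentiated 2 rose and 1 fell, beside 19.7% and 18.8%, and without Lysfree 1 it was 2 and 2. At 2-fold, 2 rose and 1 fell in the first comparison, 2 rose in the second, and 1 rose and 1 fell in the third. These members did not move as a block, and the exception in the first comparison was Klf4.

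Klf4, one of the factors that reprogram cells to pluripotency, is known to act at the very start of adipogenesis by switching on Cebpb. The gene (ENSMUSG00000003032) lies at chr4:55527143-55532466 on the minus strand of GRCm38. Its level was 23.7, 23.8 and 23.7 FPKM in the 3 Undifferentiated libraries, 6.91, 6.89 and 6.68 in Differentiated, and 49.6, 80.8 and 77.5 in Lysfree. Every Lysfree library lay above every Undifferentiated one, and every Differentiated library lay below both. Klf4 fell by 1.82 on the log2 scale (SE 0.08, edgeR adjusted p = 3.26e-118) in Differentiated vs Undifferentiated. The change was 1.60 (SE 0.13, edgeR adjusted p = 3.34e-12) in Lysfree vs Undifferentiated. In Lysfree vs Differentiated it was 3.41 (SE 0.15, edgeR adjusted p = 8.95e-14), a fitted 10.6-fold higher level. The lowest Lysfree value was that of Lysfree 1, and without that library the log2 fold change in Lysfree vs Differentiated was 3.58.

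The bases just upstream of Klf4 are shown because it had the highest level of any member in any group and the largest rise in Lysfree vs Differentiated. The sequence is from RefSeq (GRCm38.p6, chr4:55532476-55532725, minus strand, 5′ to 3′). Capitals mark, on either strand, the GC box GGGCGG that KLF and Sp proteins bind, the core TGACG of the cyclic AMP response element, and the E-box CACGTG. Where 2 sites overlap or touch, the capitals run together.
Klf4: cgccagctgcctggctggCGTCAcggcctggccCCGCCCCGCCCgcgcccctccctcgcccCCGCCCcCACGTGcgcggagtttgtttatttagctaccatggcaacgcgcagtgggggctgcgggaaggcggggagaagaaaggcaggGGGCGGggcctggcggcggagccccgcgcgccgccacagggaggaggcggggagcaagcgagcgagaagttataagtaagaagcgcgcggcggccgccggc
The stretch held 4 GGGCGG sites, 1 TGACG and 1 CACGTG.

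Klf5, which C/EBP proteins are known to induce and which acts on the Pparg promoter, was among the lowest members in all groups. The gene (ENSMUSG00000005148, chr14:99298691-99315036) was at 0.559, 0.500 and 0.792 FPKM in Undifferentiated, 2.35, 2.26 and 2.52 in Differentiated and 2.10, 1.95 and 1.71 in Lysfree. Both groups given the differentiation agents lay above Undifferentiated, with no overlap. Klf5 rose by a log2 fold change of 1.94 (SE 0.16, edgeR adjusted p = 9.8e-34) in Differentiated and 1.70 (SE 0.20, edgeR adjusted p = 2.16e-08) in Lysfree, both vs Undifferentiated. On the log2(FPKM + 1) scale, which compresses low levels, these were 1.07 and 0.85. Lysfree vs Differentiated gave -0.24 (SE 0.15, edgeR adjusted p = 0.219), and without Lysfree 1 it was -0.33 and passed, with an edgeR adjusted p of 0.0233.

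Klf15 is a direct target of the glucocorticoid receptor, through which dexamethasone acts, and is known to switch on Slc2a4 and amino acid breakdown. The gene (ENSMUSG00000030087, chr6:90462576-90475238) was counted 12, 16 and 7 times in Undifferentiated, 122, 150 and 140 times in Differentiated and 0, 8 and 1 times in Lysfree. In FPKM this was 0.202, 0.261 and 0.157, then 2.83, 2.89 and 3.11, then 0, 0.150 and 0.0185. All Differentiated libraries lay far above the rest. In FPKM all Lysfree libraries lay below Undifferentiated, but Lysfree 2, with 8 counts, was nearly level with Undifferentiated 3, with 7. Their FPKM constants were 0.933 and 0.992, so the order of these libraries depends on the scaling. Klf15 rose by a log2 fold change of 3.76 (SE 0.25, edgeR adjusted p = 9.8e-52) in Differentiated vs Undifferentiated, a fitted 13.5-fold higher level. In Lysfree vs Differentiated it was -5.55 (SE 0.42, edgeR adjusted p = 5.52e-10). Lysfree 2 held 8 of the 9 Lysfree counts, and without it this value was -7.85. Lysfree vs Undifferentiated gave -1.78 (SE 0.74, edgeR adjusted p = 0.0624), which did not pass, while without Lysfree 2 it was -4.10 with an edgeR adjusted p of 0.00112. At these counts the size of the Lysfree differences is loosely set. On the log2(FPKM + 1) scale the values were 1.71, -1.90 and -0.19 in the order given here.

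The bases upstream of Klf15 are shown because it had the widest range of changes in the family (RefSeq, GRCm38.p6, chr6:90462326-90462575, plus strand, 5′ to 3′). Capitals mark the same 3 motifs and also the KLF-bound CACCC and the CCAAT box, on either strand.
Klf15: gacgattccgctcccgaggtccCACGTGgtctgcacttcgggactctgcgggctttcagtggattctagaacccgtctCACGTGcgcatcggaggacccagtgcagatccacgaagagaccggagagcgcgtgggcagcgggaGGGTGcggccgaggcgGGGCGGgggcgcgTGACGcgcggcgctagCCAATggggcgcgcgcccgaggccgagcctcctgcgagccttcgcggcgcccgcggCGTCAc
The stretch held 2 CACGTG sites, 2 TGACG sites and 1 GC box, 1 CACCC and 1 CCAAT box.

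Klf6, which is known to repress Dlk1, a keeper of the preadipocyte state, varied little. The gene (ENSMUSG00000000078, chr13:5861482-5870394) was at 27.1, 24.7 and 26.4 FPKM in Undifferentiated, 29.4, 29.3 and 28.9 in Differentiated and 35.2, 30.1 and 30.3 in Lysfree. Differentiated vs Undifferentiated gave a log2 fold change of 0.14 (SE 0.06, edgeR adjusted p = 0.0401). This call was lost in 8 of 15 refits. It was lost without Undifferentiated 2, Undifferentiated 3 or any 1 of the Differentiated libraries, with log2 fold changes of 0.11 to 0.16. The other losses were with library sizes alone, with all 9 libraries in 1 fit and with the replicate block. In Lysfree vs Undifferentiated the log2 fold change was 0.34 (SE 0.10, edgeR adjusted p = 0.00788), which without Undifferentiated 3 became 0.34 with an edgeR adjusted p of 0.0510. Without Lysfree 1, the highest Lysfree library, this value was 0.23 and still passed. Lysfree vs Differentiated gave 0.19 (SE 0.09, edgeR adjusted p = 0.115), although the FPKM of the groups did not overlap, and with library sizes alone it was 0.26 and passed. Without Lysfree 1 this difference was 0.09 and did not pass. The FPKM values carry a constant per library of 0.932 to 1.04, lowest in Lysfree 2 and Lysfree 3 and highest in Differentiated, which the fit does not use.

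Klf13, a member best known from T cells and reported to act on the Pparg promoter, changed by less than 2-fold everywhere. The gene (ENSMUSG00000052040, chr7:63886351-63938915, minus strand) was at 11.6, 9.84 and 10.0 FPKM in Undifferentiated, 11.9, 12.9 and 11.7 in Differentiated and 15.0, 14.6 and 14.2 in Lysfree. Its mean levels rose in order from Undifferentiated to Differentiated to Lysfree. The log2 fold change was 0.19 (SE 0.06, edgeR adjusted p = 0.00701) in Differentiated vs Undifferentiated, and 0.52 (SE 0.10, edgeR adjusted p = 9.43e-05) in Lysfree vs Undifferentiated. It was 0.32 (SE 0.09, edgeR adjusted p = 0.00636) in Lysfree vs Differentiated. The first call was lost without Undifferentiated 3 (0.17) or Differentiated 2 (0.14), with all 9 libraries in 1 fit (0.20) and on log2(FPKM + 1) (0.20) or log2(FPKM + 0.1) (0.21), and the last without Differentiated 1 (0.31) or Differentiated 3 (0.29). Reads of Gm27252 and E030018B13Rik, which overlap the gene on the other strand, did not exceed 3 in any library.

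The members with a reported role in restraining adipogenesis, Klf2, Klf3 and Klf7, each had a pattern of their own. In Differentiated vs Undifferentiated 1 rose and 1 fell, beside 23.0% and 23.2% of all genes. In Lysfree vs Undifferentiated 2 rose and 1 fell, beside 18.0% and 17.1%. In Lysfree vs Differentiated 1 rose and 1 fell, beside 19.7% and 18.8%.

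Klf2, best known as the flow-responsive factor of endothelium and as a repressor of Pparg in preadipocytes, was low in Lysfree. The gene (ENSMUSG00000055148, chr8:72319033-72321656) was at 6.51, 6.05 and 7.64 FPKM in Undifferentiated, 6.40, 6.86 and 5.90 in Differentiated and 1.14, 2.36 and 1.98 in Lysfree. Undifferentiated and Differentiated overlapped and Lysfree lay below both. Differentiated vs Undifferentiated gave a log2 fold change of -0.09 (SE 0.12, edgeR adjusted p = 0.534). It was -1.82 (SE 0.21, edgeR adjusted p = 1.02e-08) in Lysfree vs Undifferentiated and -1.73 (SE 0.21, edgeR adjusted p = 7.12e-07) in Lysfree vs Differentiated. Lysfree 1 was the lowest library, and without it these became -1.60 and -1.51, both past the test.

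The bases upstream of Klf2 are shown because it passed the test as lower in Lysfree against both other groups with all libraries, and because they hold a MEF2 site, which was found in 0.508% of all promoters searched. The sequence is from RefSeq (GRCm38.p6, chr8:72318812-72319032, plus strand, 5′ to 3′), with capitals for the GC box GGGCGG, the core TGACG and the MEF2 site.
Klf2: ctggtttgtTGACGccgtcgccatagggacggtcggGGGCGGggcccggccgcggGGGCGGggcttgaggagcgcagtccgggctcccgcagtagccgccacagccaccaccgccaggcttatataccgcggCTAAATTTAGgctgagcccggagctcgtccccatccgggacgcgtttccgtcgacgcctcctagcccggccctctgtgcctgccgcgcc
The stretch held 2 GGGCGG sites, 1 TGACG and 1 MEF2 site, and ends at the base before the start of the deposited gene model. The 29 bases nearest to the start in the RefSeq window are counted as transcribed in that model and are not printed.

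Klf3, a repressor that recruits the CtBP corepressors and is known to hold down Cebpa in 3T3-L1, was low in Differentiated. The gene (ENSMUSG00000029178, chr5:64803388-64832901) was at 8.07, 7.77 and 7.53 FPKM in Undifferentiated, 3.13, 3.09 and 3.28 in Differentiated and 9.89, 9.50 and 8.80 in Lysfree. Differentiated lay below both other groups and Lysfree a little above Undifferentiated. For Klf3 the log2 fold change was -1.33 (SE 0.07, edgeR adjusted p = 1.28e-78) in Differentiated vs Undifferentiated and 1.63 (SE 0.10, edgeR adjusted p = 1.39e-11) in Lysfree vs Differentiated. The Lysfree vs Undifferentiated difference was 0.32 (SE 0.10, edgeR adjusted p = 0.0123), and it did not pass without Undifferentiated 3 (0.29) or without Lysfree 2 (0.30). Klf3 overlaps Gm20033 on the opposite strand and C230096K16Rik on its own strand, which held 5 to 126 and 5 to 17 counts per library, against 545 to 2037 for Klf3. The strand setting of the counting is not given in the sources used here, so reads of the shared bases could not be told apart.

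Klf7, reported to block adipogenesis and to lower adipokine genes, was higher in both groups given the agents. The gene (ENSMUSG00000025959, chr1:64029447-64122282, minus strand) was at 1.52, 1.19 and 1.57 FPKM in Undifferentiated, 2.92, 2.87 and 2.26 in Differentiated and 2.48, 2.64 and 2.64 in Lysfree. Differentiated and Lysfree overlapped and both lay above Undifferentiated. Klf7 rose by a log2 fold change of 0.89 (SE 0.11, edgeR adjusted p = 2.96e-16) in Differentiated and 0.91 (SE 0.15, edgeR adjusted p = 5.24e-06) in Lysfree, both vs Undifferentiated. Lysfree vs Differentiated gave 0.01 (SE 0.13, edgeR adjusted p = 0.964), and its sign turned with the scaling and the library left out. The genes that overlap Klf7, Gm26649, Mir6899 and Gm13748, held 0 counts in every library.

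Klf10 and Klf11, the TGF-beta-inducible early genes, are repressors that recruit Sin3a. Both fell in Differentiated vs Undifferentiated and both rose in Lysfree vs Differentiated. Klf10 (ENSMUSG00000037465, chr15:38291463-38300706, minus strand) was at 21.9, 18.6 and 21.2 FPKM in Undifferentiated, 15.3, 14.7 and 14.4 in Differentiated and 34.9, 32.9 and 32.9 in Lysfree. Its 3 groups did not overlap, with Lysfree highest and Differentiated lowest. The log2 fold change of Klf10 was -0.50 (SE 0.06, edgeR adjusted p = 6.07e-14) in Differentiated vs Undifferentiated and 0.75 (SE 0.10, edgeR adjusted p = 2.18e-07) in Lysfree vs Undifferentiated. In Lysfree vs Differentiated it was 1.25 (SE 0.09, edgeR adjusted p = 3.02e-10). Klf11 (ENSMUSG00000020653, chr12:24651274-24662789) was at 6.61, 5.66 and 6.72 FPKM in Undifferentiated, 2.81, 3.20 and 3.41 in Differentiated and 5.78, 5.62 and 5.11 in Lysfree. Differentiated lay below both other groups, which overlapped. The log2 fold change of Klf11 was -1.03 (SE 0.10, edgeR adjusted p = 1.17e-24) in Differentiated vs Undifferentiated, and 0.87 (SE 0.13, edgeR adjusted p = 1.06e-05) in Lysfree vs Differentiated. Lysfree vs Undifferentiated gave -0.15 (SE 0.13, edgeR adjusted p = 0.404). The first value fell under 2-fold without Undifferentiated 1, Undifferentiated 3 or Differentiated 1, in a range of -1.10 to -0.96 over all libraries left out in turn.

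**Figure D3:**
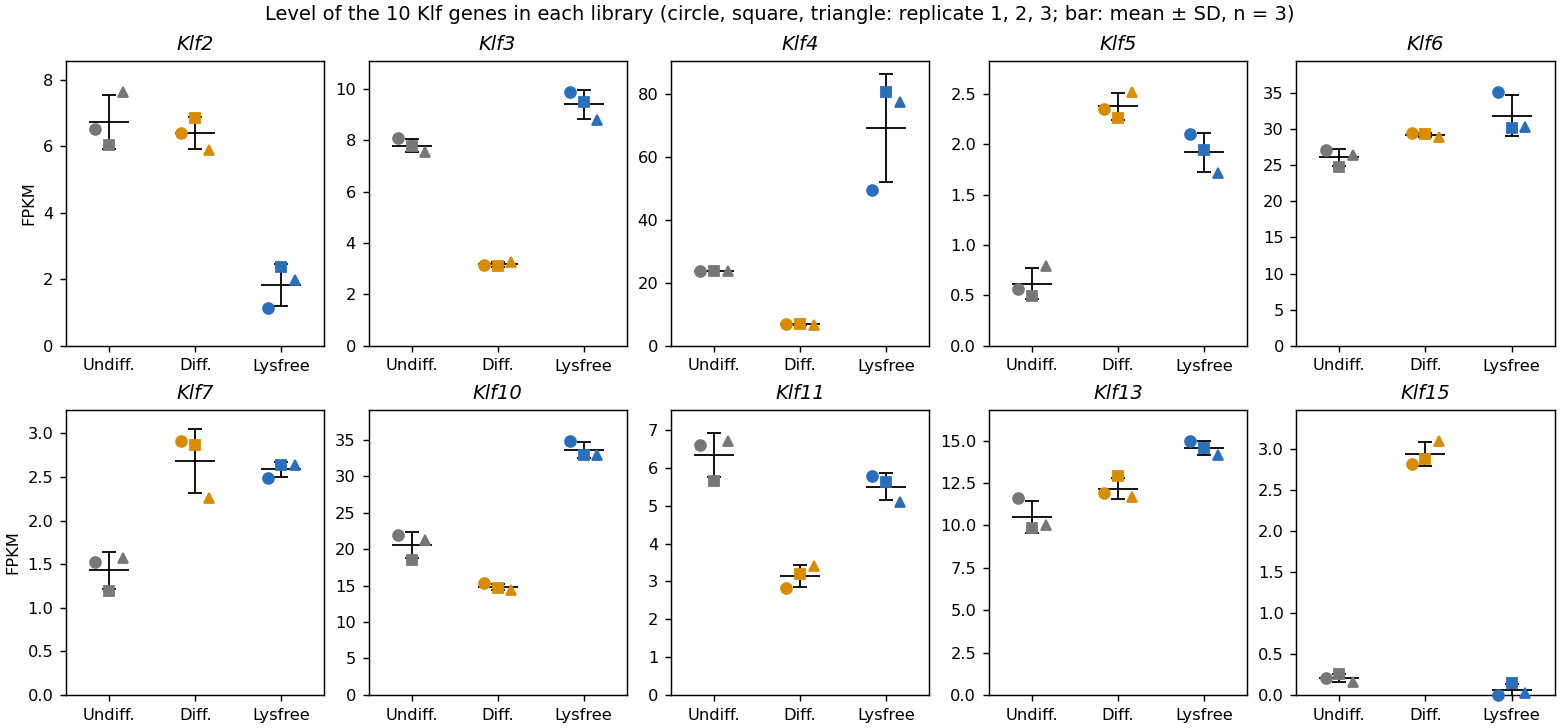
FPKM of each Klf gene in every library, with the mean and SD of each group (n = 3); each panel has its own axis from 0. Klf3, Klf4, Klf10 and Klf11 are lowest in Differentiated, Klf2 and Klf15 are lowest in Lysfree, and Klf5 and Klf7 are lowest in Undifferentiated.

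Within the Lysfree group, the members did not vary alike. Over 12697 genes of known transcript sequence whose CPM (counts scaled to library size) averaged 1 or more over the 9 libraries, the log2 ratio of Lysfree 1 to the mean of the other Lysfree libraries fell with the GC content of the transcript (Pearson r = -0.54, across genes, which are not independent replicates). Its median was 0.34 among the genes of the lowest of 5 equal GC bins and -0.30 among those of the highest. Klf2, with 61.6% GC, had a log2 ratio of -0.79, lower than all but 4.79% of genes. Klf4, with 54.6% GC, was at -0.67. Klf15 was left out, since it had 0 counts in Lysfree 1. Klf13 had 55.5% GC and a log2 ratio of 0.07. The other 6 members, with 42.4% to 48.9% GC, were between -0.08 and 0.23. The part of GC content in the Lysfree results was not tested.

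**Figure D4:**
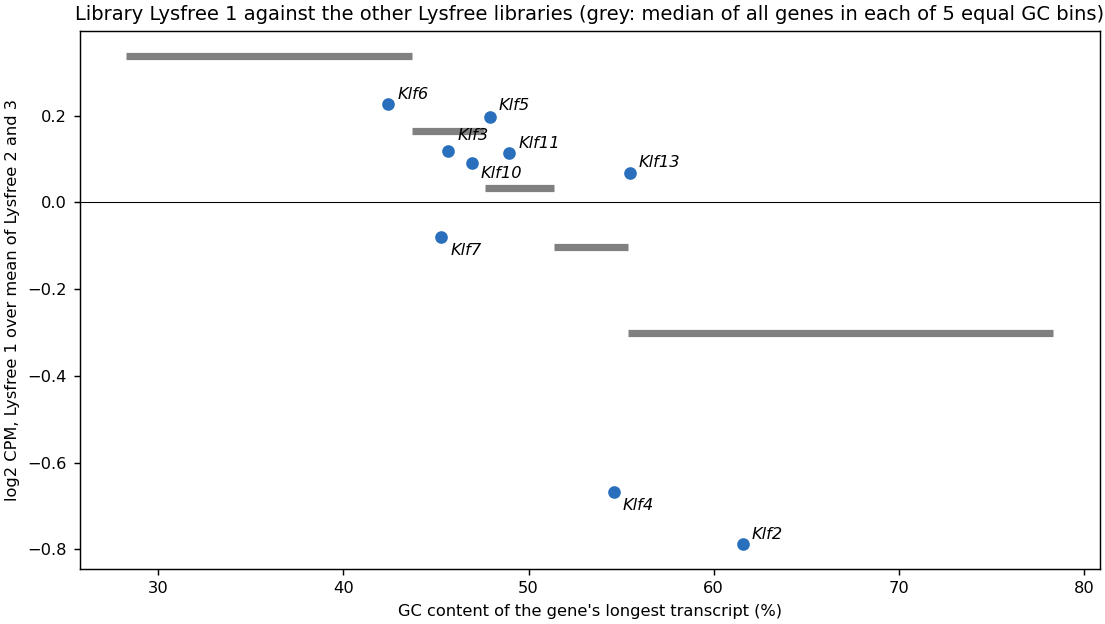
Log2 ratio of CPM in Lysfree 1 to the mean of Lysfree 2 and Lysfree 3, against transcript GC content, for the 9 Klf genes counted in Lysfree 1 (points) and as the median of all genes in each of 5 equal GC bins (grey). Klf2 and Klf4 lie at -0.79 and -0.67, below the medians of their bins.

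Upstream sequence in RefSeq (GRCm38.p6) was found for 8 of the 10 members, with no entry for Klf5 and Klf10. The 250 bases before each start were searched on both strands for 10 motifs and set beside 32851 promoters of the same length. The windows of these members held 59.2% to 78.4% GC, and the promoters beside them were not matched for GC content, which bears on GC-rich motifs. GGGCGG was present in 8 of 8 members and in 32.7% of all promoters. CACCC, the other KLF-bound sequence, was present in 5 of 8, and in 52.0% of all. CCAAT was present in Klf6, Klf11, Klf13 and Klf15, and in 33.8% of all promoters. TGACG was present in Klf2, Klf4, Klf13 and Klf15, and in 17.8% of all, and its full palindrome TGACGTCA, which holds that core, in none of the 8 and 1.55% of all. CACGTG was present in Klf4, Klf6, Klf11 and Klf15, and in 6.02% of all. The MEF2 site was present only in Klf2. The TATA box TATAAA, the C/EBP and ATF composite TGATGCAA and the CArG box were in none of the 8, against 12.4%, 0.791% and 1.47% of all promoters. A match is a run of letters in this window and was not tested as a binding site.

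Several KLFs outside the 10 were silent or nearly so, while Klf9 and Klf16 were well counted. Of 7, Klf14 was at 0 in every library, Klf17 was counted at most once, and Klf1 and Klf8 did not exceed 8 counts. Klf9, which is known to act on Pparg in the middle of adipogenesis, was at 13.9, 11.8 and 14.3 FPKM in Undifferentiated, 29.9, 31.7 and 29.4 in Differentiated and 21.4, 23.0 and 22.3 in Lysfree. Its groups did not overlap, with Differentiated highest, and the log2 fold change was 1.16 (SE 0.07, edgeR adjusted p = 4.76e-67) in Differentiated vs Undifferentiated. In Lysfree it was 0.79 vs Undifferentiated and -0.38 vs Differentiated, both past the test. Klf12, a repressor that binds CtBP, was at 17 to 80 counts per library and changed by -1.12 (log2 fold change) in Differentiated vs Undifferentiated and by 1.74 in Lysfree vs Differentiated, the directions that Klf3 took. Klf16 was at 9.41 FPKM in Lysfree 1 and at 18.1 and 19.0 in the other Lysfree libraries. Its Lysfree vs Differentiated log2 fold change of 0.38 did not pass with all 3 and was 0.61 and passed without Lysfree 1.

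The Sp factors, which bind the same GC boxes, were measured as 9 genes, of which Sp5, Sp6 and Sp8 were at 0 in every library. In Differentiated vs Undifferentiated 1 of 6 tested rose and 1 fell, beside 23.0% and 23.2% of all genes. In Lysfree vs Undifferentiated 3 of 6 rose and none fell, beside 18.0% and 17.1% of all genes. In Lysfree vs Differentiated 3 rose and 1 fell, beside 19.7% and 18.8% of all genes. Sp3, which acts as activator or repressor, was at 32.8, 29.7 and 31.6 FPKM in Undifferentiated, 27.1, 28.1 and 27.3 in Differentiated and 65.0, 44.8 and 44.3 in Lysfree. Sp4, a relative strongest in neurons, rose by a log2 fold change of 1.68 in Lysfree vs Undifferentiated. Sp2 fell by 0.51 on the log2 scale in Lysfree vs Differentiated. Lysfree 1 held the highest Sp3 and Sp4 level, and without it Lysfree vs Undifferentiated had 2 rises and 1 fall among the Sp factors.

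The RNA of proteins that KLFs recruit or that degrade them was measured for 15 cofactors and ubiquitin ligases. Of these, 3 rose and 8 fell in Differentiated vs Undifferentiated, none by 2-fold, and of all genes 23.0% rose and 23.2% fell. In Lysfree vs Undifferentiated 2 rose and 4 fell, beside 18.0% and 17.1% of all genes, and without Lysfree 1 it was 4 and 5. In Lysfree vs Differentiated 8 rose and 4 fell, beside 19.7% and 18.8% of all genes. Without Lysfree 1 the latter was 9 and 5, which adds Sin3b (0.33) and Hdac3 (-0.16). Among the acetyltransferases that KLFs recruit, Kat2b rose by 0.38 in Differentiated vs Undifferentiated and fell by 0.66 on the log2 scale in Lysfree vs Differentiated, and Ep300 rose by 0.52 in Lysfree vs Undifferentiated. Pias1, a SUMO ligase, fell by 0.51 on the log2 scale in Differentiated vs Undifferentiated and rose by 0.73 in Lysfree vs Differentiated, and Hdac1, a histone deacetylase, fell by 0.47 on the log2 scale in Lysfree vs Undifferentiated. Ctbp1, the corepressor partner of Klf3, changed by -0.47 (log2 fold change) in Differentiated vs Undifferentiated and by 0.59 in Lysfree vs Differentiated, the directions of Klf3 itself. Fbxw7, a ubiquitin ligase known to degrade KLF2 and KLF5, fell by 0.74 on the log2 scale in Differentiated vs Undifferentiated. Wwp1, which also targets KLF2 and KLF5, rose by 0.82 in Lysfree vs Undifferentiated and by 0.71 in Lysfree vs Differentiated, and by 0.53 and 0.42 without Lysfree 1. Fhl3, a LIM protein reported to bind KLF3, fell by 1.20 on the log2 scale in Lysfree vs Differentiated, the one 2-fold change of the list.

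Genes in fat cells with a reported link to a KLF were 11, of which 9 rose and 2 fell in Differentiated vs Undifferentiated, beside 23.0% and 23.2% of all genes. In Lysfree vs Undifferentiated 2 rose and 7 fell, beside 18.0% and 17.1% of all genes, and in Lysfree vs Differentiated 2 rose and 8 fell, beside 19.7% and 18.8%. Pparg, on which Klf2, Klf5 and other members act, was at 12.5, 14.9 and 13.7 FPKM in Undifferentiated, 49.6, 52.7 and 53.3 in Differentiated and 10.4, 7.32 and 7.66 in Lysfree. Cebpa, held down by Klf3, was at 21.5, 26.1 and 21.2, then 167, 156 and 170, then 6.32, 8.33 and 10.0 FPKM. Both were highest in Differentiated and lowest in Lysfree with no overlap, while Klf3 was lowest in Differentiated and Klf2 lowest in Lysfree. Cebpb, switched on by Klf4 together with Egr2, was at 120, 136 and 123 FPKM in Undifferentiated, 165, 166 and 177 in Differentiated and 91.2, 223 and 237 in Lysfree. Its Lysfree vs Differentiated log2 fold change was 0.18 and did not pass with all libraries, and 0.49 and past the test without Lysfree 1. Egr2 changed by 0.54 (log2 fold change) in Differentiated vs Undifferentiated and by -1.59 in Lysfree vs Differentiated, against the direction of Klf4 in both. Dlk1, which Klf6 represses, fell by 3.18 on the log2 scale in Differentiated vs Undifferentiated and by 2.00 in Lysfree vs Undifferentiated. Dlk1 was 1.17 higher in Lysfree vs Differentiated, while the Klf6 changes stayed at or under 0.34. The list also holds the adipocyte genes Fabp4, which carries fatty acids, with a log2 fold change of 5.76 in Differentiated vs Undifferentiated, and Adipoq, the hormone adiponectin, with -3.74 in Lysfree vs Undifferentiated and -7.74 in Lysfree vs Differentiated. Without Lysfree 1 the list had 2 rises and 8 falls in Lysfree vs Undifferentiated and 3 and 8 in Lysfree vs Differentiated.

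Slc2a4, the insulin-responsive glucose transporter GLUT4 and a known target of Klf15, was counted 19, 31 and 9 times in Undifferentiated, 575, 735 and 603 times in Differentiated and 0, 0 and 1 times in Lysfree. Against a floor of 3 counts per library, it was at least 215-fold lower in Lysfree than in Differentiated. Of the 7 amino acid breakdown genes linked to Klf15, Tat was at 0 in every library. The other 6 all rose in Differentiated vs Undifferentiated, where 23.0% of all genes rose. The median log2 fold change of these 6 was 2.13, and that of all genes was 0.02. In Lysfree vs Undifferentiated 3 rose and 2 fell, beside 18.0% and 17.1% of all genes. In Lysfree vs Differentiated 5 fell and 1, Gpt2, rose, beside 18.8% and 19.7% of all genes. The median there was -2.02 against -0.06 over all genes. Bcat2, which starts branched-chain amino acid breakdown, was at 12.6, 15.0 and 13.2 FPKM in Undifferentiated, 86.1, 85.2 and 87.3 in Differentiated and 10.2, 12.5 and 12.01 in Lysfree. Bckdhb, a subunit of the next enzyme of that pathway, rose by a log2 fold change of 2.91 and then was 2.25 lower in Lysfree vs Differentiated, while Bckdha, its partner subunit, fell by 1.08 on the log2 scale in Lysfree vs Undifferentiated. Gpt, an alanine aminotransferase, rose by 2.04 and then was 3.29 lower. Prodh, which starts proline breakdown, rose by 2.22 and then was 1.53 lower. The markers of adipocytes, which are no Klf15 list, moved the same way in Differentiated vs Undifferentiated and in Lysfree vs Differentiated. There 8 of 8 were higher and then 8 of 8 lower, beside 23.0% and 18.8% of all genes.

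**Figure D5:**
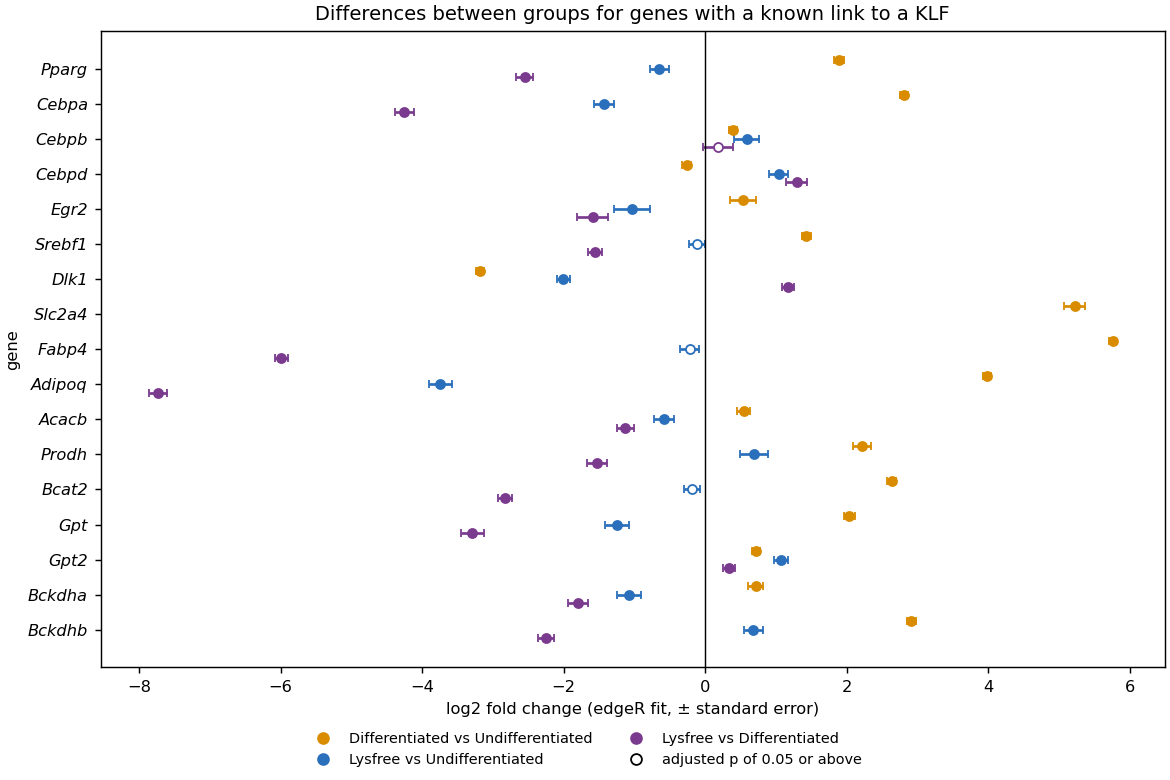
Fitted log2 fold change with standard error for genes with a known link to a KLF, in the 3 comparisons; filled points have an edgeR adjusted p under 0.05. Lysfree values of Slc2a4 are left out because its Lysfree libraries held at most 1 count. Most genes lie right of 0 in Differentiated vs Undifferentiated and left of 0 in Lysfree vs Differentiated, with Cebpd and Dlk1 reversed and Cebpb and Gpt2 on the right in all 3.

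Of the 4 vascular genes linked to Klf2, Thbd, the thrombin receptor thrombomodulin, was the only one of any height. It was at 41.9, 37.4 and 40.3 FPKM in Undifferentiated, 35.3, 35.5 and 35.9 in Differentiated and 98.3, 95.9 and 95.3 in Lysfree, and so was highest in the group where Klf2 was lowest. Thbd had a log2 fold change of 1.32 in Lysfree vs Undifferentiated, and it passed the test in both Lysfree comparisons. Nos3, the endothelial nitric oxide synthase, held at most 1 count in a Lysfree library and was at least 3.52-fold lower there than in Differentiated. Tek held 1 to 2 counts in Differentiated libraries and 13 to 14 in Lysfree, at least 4.48-fold higher, and Kdr was counted 1 time, in Lysfree 3.

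The genes whose log2(FPKM + 1) followed each member most closely over the 9 libraries were sought among 11623 genes with a mean of at least 1 FPKM. With 3 groups of 3 libraries such a correlation mostly reflects the group means, and it is given as a description. Klf15 was closest to Bcat2 (Pearson r = 0.998), then to Tnfaip3 and Slc2a4, of which Bcat2 and Slc2a4 also stood in the lists above. Klf4 was closest to Fyn (r = 0.997), Ass1 and Rcc2. Ass1, the argininosuccinate synthase of arginine formation, was at 51.8, 13.6 and 136 FPKM on average in Undifferentiated, Differentiated and Lysfree. Klf3 was closest to Wsb2 (r = 0.998), Rerg and Ctnnb1, and Ctnnb1, which encodes beta-catenin, was at 150, 61.5 and 175 FPKM on average. Klf2 was closest to Mtss1l, Prr13 and Smtn (each r = 0.993), and Klf10 to Smcr8, Msn and Spry1 (r = 0.997, 0.997 and 0.994). The lowest best match was that of Klf7, with Tepsin (r = 0.981).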

How the data were processed

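Poly A enriched RNA of 3T3-L1 cells was sequenced as paired-end reads by the authors in 9 libraries, and groups and replicate numbers were taken from the sample titles. Per the study's methods, low-quality reads and reads with adaptors were removed and the rest were mapped to mm10 with HISAT2. The submitters' processing notes name HISAT2 2.0.5 and featureCounts 1.5.0-p3, and the strand setting and annotation release are not given in the sources used here. The authors deposited raw read counts per gene and FPKM values for the same 54532 genes. Every column of the deposited tables matched a single sample.

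Counts were tested with edgeR 4.0.16 in R 4.3.3 (TMM, glmQLFit and glmQLFTest, two-sided, Benjamini-Hochberg over all genes tested), separately for the 6 libraries of each comparison, leaving out genes at 0 in all 6. Genes past the test had an adjusted p under 0.05, and a 2-fold change means a log2 value beyond 1 or -1 as well. The standard error is the size of the log2 fold change divided by the square root of F. With 3 libraries against 3, a permutation test of a single gene could not give a p under 0.1. The floor was 3 counts per library, and a group was at it when none of its libraries held more; this covers counting error only. Levels between genes were compared in FPKM.

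Also run were library sizes alone, DESeq2 1.42.0, median-of-ratios factors in edgeR, filterByExpr, a minimum of 10 counts in each library, all 9 libraries in 1 fit, the replicate number as a block, limma 3.58.1 on log2(FPKM + 1) and log2(FPKM + 0.1), and leaving out each library in turn. The gene lists without Lysfree 1 were added after seeing the data. The fits were tested on simulated data with known changes. The members and gene lists were chosen with earlier results of these data known. All 10 members are named. Of each list, the genes named are those past the test with the 2 largest rises or falls in a comparison, and genes whose link to a KLF is described. For each member, the 3 most correlated genes were computed. Promoter sequences are RefSeq's for GRCm38.p6, and gene coordinates are those of the deposited tables on mm10 (GRCm38).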

Additional observations from a re-analysis of the deposited data

How the results depend on the processing

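Over 446 refits of the 30 log2 fold changes of the KLF members, 414 kept direction and side of the threshold, 18 lost the call, 4 gained it and 10 changed sign, and 20 of the 30 results kept both in every refit. With all 9 libraries in 1 fit, 3 members rose in Differentiated vs Undifferentiated in place of 5, and in Lysfree vs Undifferentiated 2 fell, both past the test and by 2-fold, in place of 1. With at least 10 counts in every library Klf15 was not tested, which left 1 member 2-fold higher in Differentiated vs Undifferentiated and 1 member lower, past the test and by 2-fold, in Lysfree vs Differentiated. On log2(FPKM + 1), 1 member rose 2-fold in Lysfree vs Undifferentiated. Leaving out 1 library gave 3 to 5 members higher in Differentiated vs Undifferentiated, 3 of them without Undifferentiated 3 or Differentiated 2, and 1 to 2 members lower in Lysfree vs Undifferentiated, past the test and by 2-fold, with 2 without Lysfree 2. Klf2 in Differentiated vs Undifferentiated ranged from -0.159 to 0.0107 with a library left out, the positive value coming without Undifferentiated 3, and it passed in none of these. Klf7 in Lysfree vs Differentiated was -0.0143 in DESeq2, -0.0142 with median of ratios size factors, -0.0220 with filterByExpr, -0.0428 with at least 10 counts, -0.0332 on log2(FPKM + 1), -0.0421 on log2(FPKM + 0.1) and -0.0984 to 0.0745 with a library left out, and passed in none. The cause of these changes was not tested. The number of all genes changed 2-fold fell from 5329 to 3488 with at least 10 counts and 2726 on log2(FPKM + 1) in Differentiated vs Undifferentiated, from 3426 to 2244 and 1474 in Lysfree vs Undifferentiated, and from 4507 to 2891 and 2198 in Lysfree vs Differentiated. Same-numbered libraries deviated from their group means with correlations of -0.08 to 0.03, -0.05 to 0.12 and -0.02 to 0.03 in the 3 comparisons, so the numbers were not taken to pair the samples. With the replicate block 4 members rose and 4 fell in Differentiated vs Undifferentiated, Klf6 (0.14, edgeR adjusted p = 0.0849) being the one lost, 7 rose and 1 fell in Lysfree vs Undifferentiated, and 5 rose and 2 fell in Lysfree vs Differentiated, with the 2-fold counts as in the fit without it. Depth limits Klf15 in Lysfree, with 9 counts in all.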
